A study of Mus musculus with 10 samples.

Results

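Insulin-like growth factor 1 (IGF1), its receptor and the proteins that carry it in blood were followed in mouse liver after siRNA against the Rab5 genes. The 7 genes were Igf1, Igf1r, Igfals, Igfbp1, Igfbp2, Igfbp3 and Igfbp4, of 18194 gene symbols on the array, and they were taken by symbol with every probe set that carries it. A probe set is a group of short probes that together read 1 transcript, most often toward its 3′ end, and the 7 genes had 20 of them. Of these, 18 passed the filter on low values; the other 2, both of Igf1r, are described as dim.

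All livers came from male mice of the inbred strain C57BL/6 NHsd, with no engineered allele named in the labels. The groups were PBS (2 arrays), lipid nanoparticles with a control siRNA (4 arrays) and the same particles with siRNAs called Rab5all (4 arrays). The siRNA dose was 1.5 mg/kg by the tail vein, with the livers collected 5 days later. The sources call the control siRNA both scrambled and directed at luciferase, and they do not say whether each liver is a separate animal, so a p-value here measures only the spread between the samples.

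IGF1 is a growth factor that hepatocytes secrete in response to growth hormone, and the liver is the main source of IGF1 in blood. There it travels bound to proteins of the IGFBP family, mostly in a complex of IGF1, IGFBP3 and the acid-labile subunit encoded by Igfals, which keeps it in the circulation. IGFBP1 is a hepatocyte protein that insulin represses and fasting or stress raises, and it limits the IGF1 that is free to act. The receptor, encoded by Igf1r, is sparse on adult hepatocytes, which carry the related insulin receptor. Rab5 proteins are small GTPases of early endosomes, where receptors arrive after uptake.

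Values are deposited log2 expression values, and a difference is one of group means on that scale, tested with limma across all 24281 kept probe sets. A probe set is said to have risen or fallen if its adjusted p (Benjamini-Hochberg over those probe sets) was under 0.05. Array medians lay between 4.29 and 4.37, and arrays of 1 group correlated with r of 0.977 to 0.992 across probe sets, which are not independent. Rab5a was reduced to 28.6% of the control siRNA level and Rab5c to 25.1%, while Rab5b, dim on the array, differed by -0.24 (adjusted p = 0.207). On the leading principal component (57.3% of the variance) Rab5 siRNA liver 1 lay at 23.4 against 39.7 to 49.5 for the other 3 of its group and -32.6 to -20.4 for the PBS and control siRNA livers. That liver had the lowest Rab5a value of its group, 6.28 against 6.91 to 7.16. Its Rab5c value was the highest of the group, 7.36 against 6.99 to 7.28. The Gapdh 3′ minus 5′ difference, a sign of RNA quality, was highest in the arrays numbered 2 (2.58 to 2.86, against 2.15 to 2.38 in the others). The same difference for beta-actin was lower in all 4 Rab5 siRNA arrays (2.59 to 2.75) than in every PBS and control siRNA array (2.83 to 3.23), and its part in the results was not tested. The called counts and the kept probe sets' Rab5 siRNA against control siRNA differences were also computed with the siRNA arrays numbered 1 left out, and with every array numbered 2 left out.

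Between Rab5 siRNA and control siRNA, the transcripts of 2 carrier proteins, Igfals and Igfbp3, fell and that of Igfbp1 rose. Igfals fell to 48.7% of its control level and Igfbp3 to 41.4% (60.3% by its second probe set), while Igfbp1 rose 1.62-fold. Of these 3 genes, only Igfals also passed against PBS. All 6 probe sets of Igfbp4 were lower by 0.26 to 0.37 and 1 of them passed the test. No probe set of Igf1 itself passed, nor that of Igfbp2. In all, 6 of the 18 kept probe sets passed (33.3%), 1 higher and 5 lower, against 21.1% of all 24281 kept probe sets (12.2% higher and 8.96% lower). One of the 5 was a dim Igf1r probe set that lay under the filter in every Rab5 siRNA array and was kept through the other groups. Leaving it out, a choice made after seeing the data, gave 5 of 17 (29.4%). The groups did not overlap for 8 of the 18 (1 higher and 7 lower), against 23.4% of all kept probe sets. The median difference over the 18 was -0.29, and -0.01 over all kept probe sets. One probe set per gene, the one with the highest mean, gave 3 of 7 that passed. The 6 became 2 without control liver 4, Rab5 liver 4 or the arrays numbered 2, 3 without control liver 3 or Rab5 liver 2, and 10 with the replicate number as a block.

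**Figure D1:**
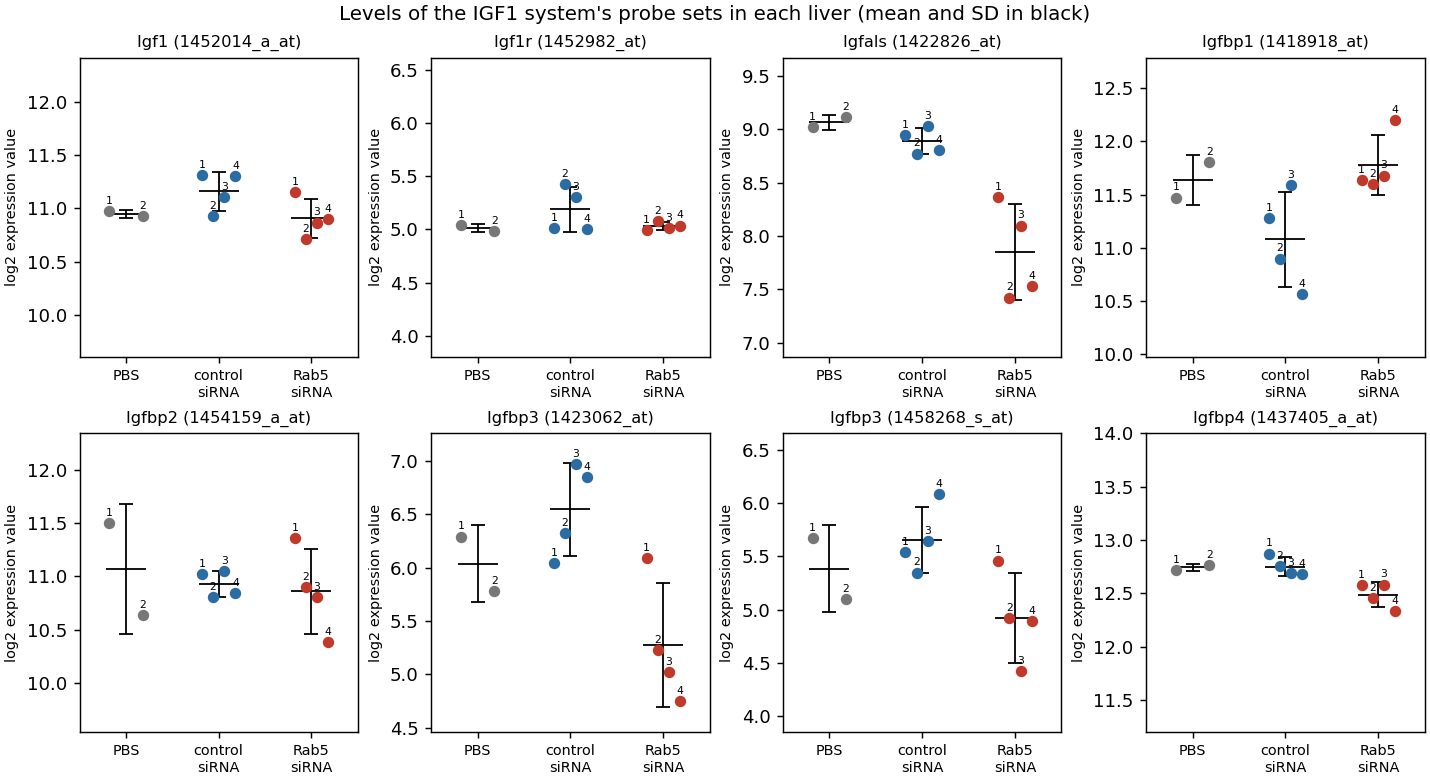
Deposited log2 expression values (vertical axes, each spanning the same range) of the probe set with the highest mean for each of the 7 genes and of both Igfbp3 probe sets, by group (horizontal axes). Points are livers marked with their replicate number and black bars are the mean and SD; the 4 Rab5 siRNA livers lie below all others for Igfals, and Rab5 siRNA liver 1 lies nearest to the control livers for Igfals and Igfbp3.

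The hormone came from 4 probe sets of Igf1. The brightest, 1452014_a_at, read 10.98 and 10.92 in the PBS livers, 11.31, 10.92, 11.10 and 11.30 with control siRNA, and 11.15, 10.71, 10.87 and 10.90 with Rab5 siRNA. The 3 groups overlapped. The Rab5 minus control difference was -0.25 (SE 0.120, 95% interval -0.51 to 0.01, adjusted p = 0.160). For 1434413_at the values were 10.01 and 10.34 with PBS, 9.60, 10.12, 10.29 and 10.40 with control siRNA, and 9.59, 9.57, 9.90 and 10.10 with Rab5 siRNA. Control liver 1 was as low here as the lowest Rab5 livers. The difference was -0.31 (SE 0.174, adjusted p = 0.235), and it was -0.30 (SE 0.154, adjusted p = 0.193) for 1437401_at.

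The fourth probe set of Igf1, 1419519_at, went against the other 3. It read between 10.25 and 10.45 with control siRNA and between 10.33 and 10.51 with Rab5 siRNA, a difference of 0.07 (SE 0.0919, 95% interval -0.13 to 0.27, adjusted p = 0.650). With the replicate number as a block, 1434413_at passed (adjusted p = 0.0477) and 1437401_at did not (adjusted p = 0.0510). Without control liver 1, 1434413_at also passed, at -0.48 (adjusted p = 0.0450), and with arrays weighted by their quality 1452014_a_at did, at -0.33 (adjusted p = 0.0436).

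The receptor gene Igf1r was dim in every group. Its brightest probe set, 1452982_at, had a mean of 5.01 with PBS, 5.19 with control siRNA and 5.03 with Rab5 siRNA, a Rab5 minus control difference of -0.16 (SE 0.110, adjusted p = 0.342). For 1428967_at, just above the filter at 4.33, the values were 4.40 and 4.36 with PBS, 4.23, 4.52, 4.61 and 4.79 with control siRNA, and 4.22, 4.09, 4.18 and 3.88 with Rab5 siRNA. The siRNA groups did not overlap, but the highest Rab5 liver and the lowest control liver were almost level. The difference was -0.45 (SE 0.125, adjusted p = 0.0219, and 0.0300 in the fit without the filter). All 4 Rab5 values lay under the filter, so the probe set was kept only through the groups in which it was higher, and no weight is put on its call. Such dim values have no measured background on these arrays.

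The other probe sets of Igf1r did not follow it. The third kept one, 1446303_at, differed by 0.04 (SE 0.0951, adjusted p = 0.832), and the 2 dim ones, 1452108_at and 1426565_at, which read 3.21 to 3.88 in all arrays, differed by 0.00 and 0.05. The call on 1428967_at was lost without control liver 3 (adjusted p = 0.0566), control liver 4 (0.0633), Rab5 liver 2 (0.0540), Rab5 liver 4 (0.0649) or the arrays numbered 2 (0.129).

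Igfals encodes the acid-labile subunit, a leucine-rich protein that hepatocytes secrete and that holds IGF1 and IGFBP3 in the large circulating complex. Its single probe set, 1422826_at, read 9.02 and 9.11 with PBS, 8.95, 8.77, 9.03 and 8.81 with control siRNA, and 8.36, 7.42, 8.10 and 7.53 with Rab5 siRNA. Every Rab5 liver lay below every other liver, and Rab5 livers 2 and 4 were lowest. The mean went from 8.89 ± 0.121 (SD, n = 4) to 7.85 ± 0.451 (SD, n = 4), so Igfals fell by 1.04 (SE 0.178, 95% interval -1.42 to -0.65, adjusted p = 0.00102). It passed in all 21 alternative settings, with adjusted p from 9.04e-05 to 0.0146.

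Growth hormone raises Igfals through STAT5, a transcription factor that binds TTCNNNGAA. The windows around the annotated starts of all 7 genes were searched for these letters. Those of Igf1, Igf1r, Igfbp1, Igfbp2, Igfbp3 and Igfbp4 did not hold them. Of the 3 starts of Igfals in the RefSeq promoter table (build GRCm38.p6, 250 bases before to 50 after the start), 2 did. These 2 windows are shown because the fall of Igfals against control siRNA was called in every setting. The capitals mark the TTCNNNGAA matches and, in the second window, also TGTTTAC, the reverse complement of the FOXO motif GTAAACA. The windows lie on the plus strand at chr17:24877594-24877893 and chr17:24877981-24878280. Searched on both strands, TTCNNNGAA occurred in 8.30% and GTAAACA in 3.65% of all 32851 promoter windows of this length, and a match is a description, not a binding site.
Igfals start 1: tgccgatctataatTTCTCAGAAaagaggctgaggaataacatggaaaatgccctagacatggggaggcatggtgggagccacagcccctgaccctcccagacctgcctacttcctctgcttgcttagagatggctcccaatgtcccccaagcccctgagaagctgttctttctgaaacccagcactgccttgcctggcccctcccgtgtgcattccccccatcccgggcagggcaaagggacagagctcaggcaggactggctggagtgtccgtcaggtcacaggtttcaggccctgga
Igfals start 2: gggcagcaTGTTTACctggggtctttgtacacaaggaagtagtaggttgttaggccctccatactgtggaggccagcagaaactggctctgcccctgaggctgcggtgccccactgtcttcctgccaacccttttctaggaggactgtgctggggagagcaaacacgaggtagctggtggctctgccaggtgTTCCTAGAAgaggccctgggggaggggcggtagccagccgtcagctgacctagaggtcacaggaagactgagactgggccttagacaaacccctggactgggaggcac

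Igfbp3 encodes the main IGF carrier of blood, which in rat liver is made mostly by the cells lining the sinusoids and not by hepatocytes. Its brighter probe set, 1423062_at, read 6.29 and 5.78 with PBS, 6.04, 6.32, 6.97 and 6.85 with control siRNA, and 6.09, 5.23, 5.02 and 4.75 with Rab5 siRNA. Rab5 livers 2, 3 and 4 lay below all others, while Rab5 liver 1 lay above control liver 1. From 6.55 ± 0.440 to 5.27 ± 0.580 (SD, n = 4 each), it fell by 1.27 (SE 0.269, 95% interval -1.85 to -0.69, adjusted p = 0.00426). It passed in all 21 alternative settings, with adjusted p from 8.40e-05 to 0.0332.

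The second probe set of Igfbp3, 1458268_s_at, gave a smaller difference in the same direction. It read 5.67 and 5.10 with PBS, 5.54, 5.35, 5.64 and 6.09 with control siRNA, and 5.46, 4.92, 4.43 and 4.89 with Rab5 siRNA. Again only Rab5 liver 1 reached into the control range. This probe set fell by 0.73 (SE 0.211, 95% interval -1.18 to -0.27, adjusted p = 0.0256). The call was lost without control liver 3 (adjusted p = 0.0516), control liver 4 (0.0709), Rab5 liver 2 (0.0571), 3 (0.0827) or 4 (0.0558), or without the arrays numbered 2 (0.0596).

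Igfbp1 was the only one of the 7 genes with a called rise. Its probe set, 1418918_at, read 11.47 and 11.80 with PBS, 11.28, 10.90, 11.59 and 10.56 with control siRNA, and 11.63, 11.60, 11.68 and 12.19 with Rab5 siRNA. The siRNA groups did not overlap, though Rab5 liver 2 and control liver 3 were almost level, and both PBS livers lay above 3 of the 4 control livers. The mean was 11.08 ± 0.445 with control siRNA and 11.77 ± 0.282 with Rab5 siRNA (SD, n = 4 each), so Igfbp1 rose by 0.69 (SE 0.201, 95% interval 0.26 to 1.13, adjusted p = 0.0259). The call was lost without control liver 2 (0.63, adjusted p = 0.0708), control liver 4 (0.52, 0.0668), Rab5 liver 4 (0.55, 0.0776) or the arrays numbered 2 (0.69, 0.117).

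Igfbp1 and Igfbp3 are neighbours on chromosome 11, on opposite strands and with no annotated gene between them in the RefSeq table, and their transcripts moved in opposite directions here. The Igfbp1 promoter is known for a pair of insulin response sequences that FOXO factors bind, and it is shown for that reason. The window, chr11:7197537-7197836 on the plus strand of GRCm38.p6 from RefSeq, held both forms searched, CAAAACAA and TTATTTTG (the reverse complement of CAAAATAA), which are in capitals. Searched on both strands, CAAAACAA occurred in 2.51% and CAAAATAA in 1.66% of the 32851 windows. The Igfbp3 window held neither, nor TTCNNNGAA or GTAAACA, which says only that these letters are not in it. The windows of Igf1, Igf1r, Igfbp2 and Igfbp4 held none of them either.
Igfbp1: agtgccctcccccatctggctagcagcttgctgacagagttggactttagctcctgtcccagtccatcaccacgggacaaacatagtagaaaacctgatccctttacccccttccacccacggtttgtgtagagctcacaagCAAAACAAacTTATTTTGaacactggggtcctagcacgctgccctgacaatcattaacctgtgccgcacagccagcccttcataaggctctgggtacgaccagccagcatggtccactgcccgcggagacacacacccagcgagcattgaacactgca

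Igfbp2 encodes a carrier that hepatocytes secrete and that insulin and growth hormone keep low. Its probe set, 1454159_a_at, read 11.50 and 10.64 with PBS, 11.02, 10.81, 11.05 and 10.84 with control siRNA, and 11.36, 10.90, 10.80 and 10.38 with Rab5 siRNA. The groups overlapped, and the spread was wide both between the 2 PBS livers and within the Rab5 siRNA group. The Rab5 minus control difference was -0.07 (SE 0.202, 95% interval -0.50 to 0.37, adjusted p = 0.848).

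Igfbp4 encodes a carrier that holds IGF1 away from its receptor until the protease PAPP-A cuts it. It had 6 probe sets, with means from 6.78 to 12.49 with Rab5 siRNA, and levels are not compared between probe sets. The called one, 1423756_s_at, read 12.18 and 12.22 with PBS, 12.15, 12.04, 12.07 and 11.99 with control siRNA, and 11.89, 11.66, 11.88 and 11.49 with Rab5 siRNA. Every Rab5 liver lay below every other liver. It fell by 0.33 to 79.5% of the control level (SE 0.107, 95% interval -0.56 to -0.10, adjusted p = 0.0417).

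The other 5 probe sets of Igfbp4 were lower by 0.26 to 0.37, with adjusted p from 0.0509 to 0.183. In 5 of the 6 the siRNA groups did not overlap, and 1421991_a_at, the dimmest, was the exception. Probe sets of 1 gene share their RNA and may share sequence, so they are not independent replicates. The call on 1423756_s_at was lost in 12 of 20 alternative settings, among them leaving out any 1 liver other than Rab5 livers 1 and 3, with adjusted p up to 0.209. With the replicate number as a block, 1437406_x_at (adjusted p = 0.0357), 1423757_x_at (0.0364) and 1421992_a_at (0.0360) passed as well.

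**Figure D2:**
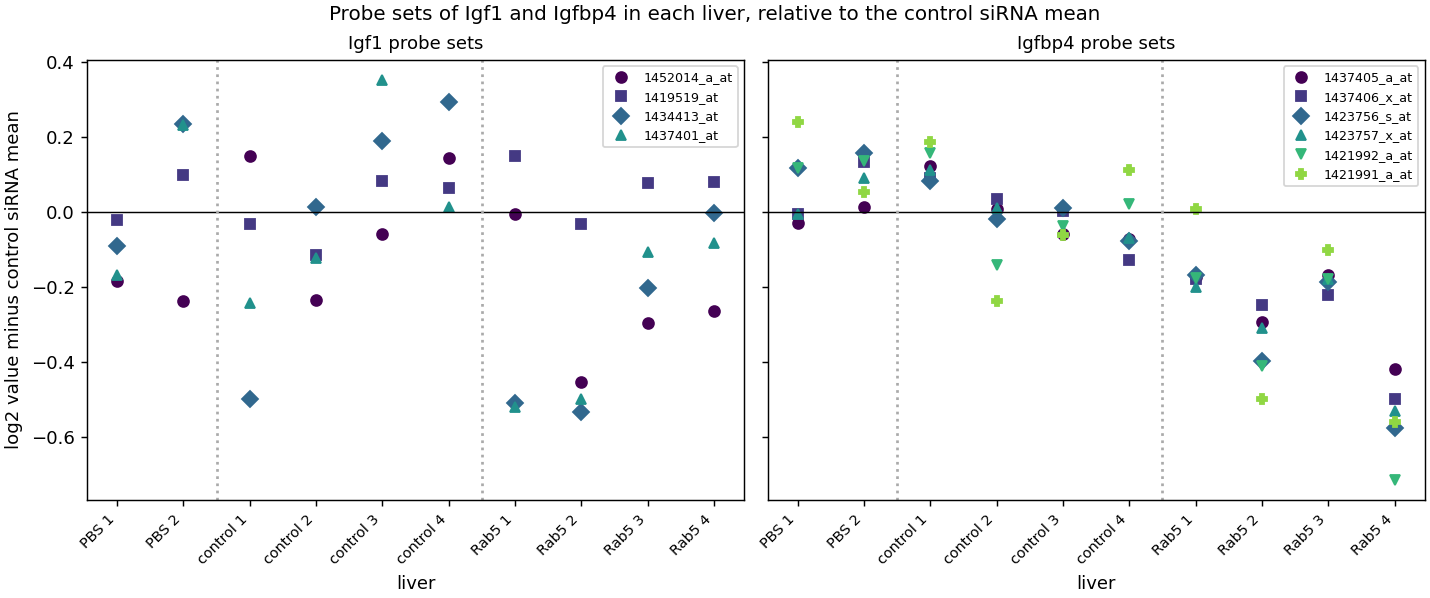
Log2 values of the 4 Igf1 and 6 Igfbp4 probe sets in each of the 10 livers (horizontal axes), as the difference from that probe set's control siRNA mean (vertical axis). Each symbol is 1 probe set. All Igfbp4 probe sets lie below their control siRNA means in Rab5 siRNA livers 2, 3 and 4, furthest in livers 2 and 4. In Rab5 siRNA liver 1 all but 1421991_a_at do. The Igf1 probe sets spread apart within single livers.

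**Figure D3:**
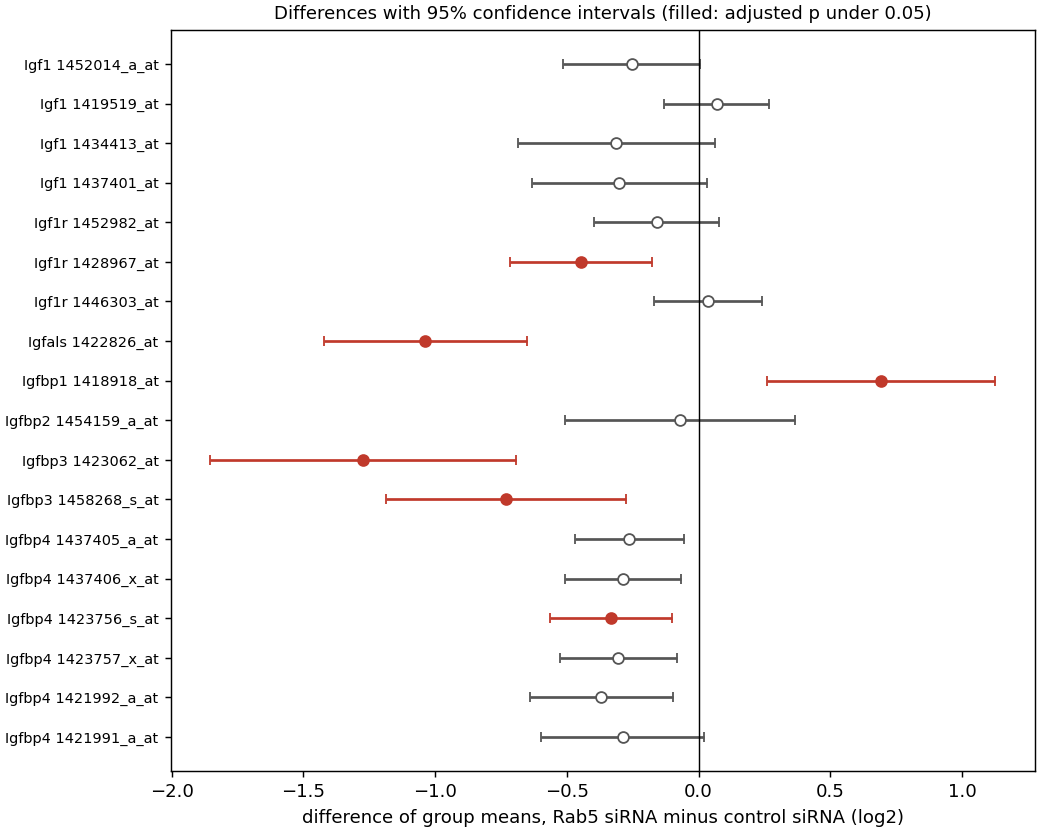
Rab5 siRNA minus control siRNA difference of group means on the log2 scale (horizontal axis) for the 18 kept probe sets (vertical axis), with 95% confidence intervals and n = 4 per group. Filled points have an adjusted p under 0.05; of these 6, only Igfbp1 lies above 0, and Igfbp3 1423062_at has the lowest value, -1.27.

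The PBS livers give the level of these genes without particles. Between control siRNA and PBS, limma called 0 of the 18 kept probe sets and 0% of all 24281, with n = 2 PBS arrays. At an unadjusted p under 0.05 the counts were 1 of 18 and 1065 of 24281 (4.39%). The groups did not overlap for 2 of the 18, against 13% of all kept probe sets, and the median difference of the 18 was -0.05. The 1 was Igfbp1, lower with control siRNA than with PBS by 0.56 (SE 0.246, unadjusted p = 0.0415, adjusted p = 0.999). Igfals differed by -0.18 (SE 0.218) and Igfbp3 1423062_at by 0.51 (SE 0.329), both with an adjusted p of 0.999.

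Against PBS, the order of the levels was not the same for the 3 genes that moved most. For Igfals, PBS (9.07 ± 0.0683, SD, n = 2) and control siRNA were neighbours that did not differ beyond their spread, and Rab5 siRNA lay below both. It fell by 1.21 against PBS (SE 0.218, adjusted p = 0.00197), to 43.1% of the PBS level, with no overlap. Without the arrays numbered 2 this was -1.02 with an adjusted p of 0.0702. For Igfbp3 1423062_at, PBS (6.04 ± 0.361, SD, n = 2) lay between the siRNA groups, and Rab5 siRNA minus PBS was -0.76 (SE 0.329, adjusted p = 0.149). That difference passed without Rab5 liver 1 (-1.04, adjusted p = 0.0138), without the arrays numbered 1 (-1.04, 0.00541) and with array weights (-0.84, 0.0402). For 1458268_s_at it was -0.46 (adjusted p = 0.280).

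For Igfbp1, PBS (11.64 ± 0.236, SD, n = 2) and Rab5 siRNA were the neighbours. They differed by 0.14 (SE 0.246, 95% interval -0.39 to 0.67, adjusted p = 0.784), and control siRNA was the low group. The sign of this difference turned without PBS liver 1 (-0.03) or Rab5 liver 4 (-0.00328).

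Among the 18 kept probe sets, 3 fell against PBS and 0 rose, or 16.7% against 15.4% of all kept probe sets (8.39% higher and 7.04% lower). In 8 the groups did not overlap, against 36.3% of all kept probe sets. Besides Igfals, the called probe sets were Igfbp4 1423756_s_at, which fell by 0.47 (SE 0.131, adjusted p = 0.0273), and 1421992_a_at, which fell by 0.50 (SE 0.154, adjusted p = 0.0448). The first call was lost in 6 of 20 and the second in 12 of 20 alternative settings, the replicate block among the latter (-0.45, adjusted p = 0.0692). Leaving out PBS liver 1 or 2 or Rab5 liver 2 or 4 ended both calls (adjusted p from 0.0533 to 0.193), and leaving out control liver 2, 3 or 4 ended the second (0.0514 to 0.0600). The other 4 Igfbp4 probe sets were lower than with PBS by 0.26 to 0.43, with adjusted p from 0.0781 to 0.177. For Igf1, 1434413_at differed by -0.38 (adjusted p = 0.270) and 1437401_at by -0.33 (adjusted p = 0.280). With the block they passed, at -0.61 (adjusted p = 0.0131) and -0.53 (adjusted p = 0.0238). Both comparisons with Rab5 siRNA share its 4 arrays, and both comparisons with PBS share its 2.

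**Figure D4:**
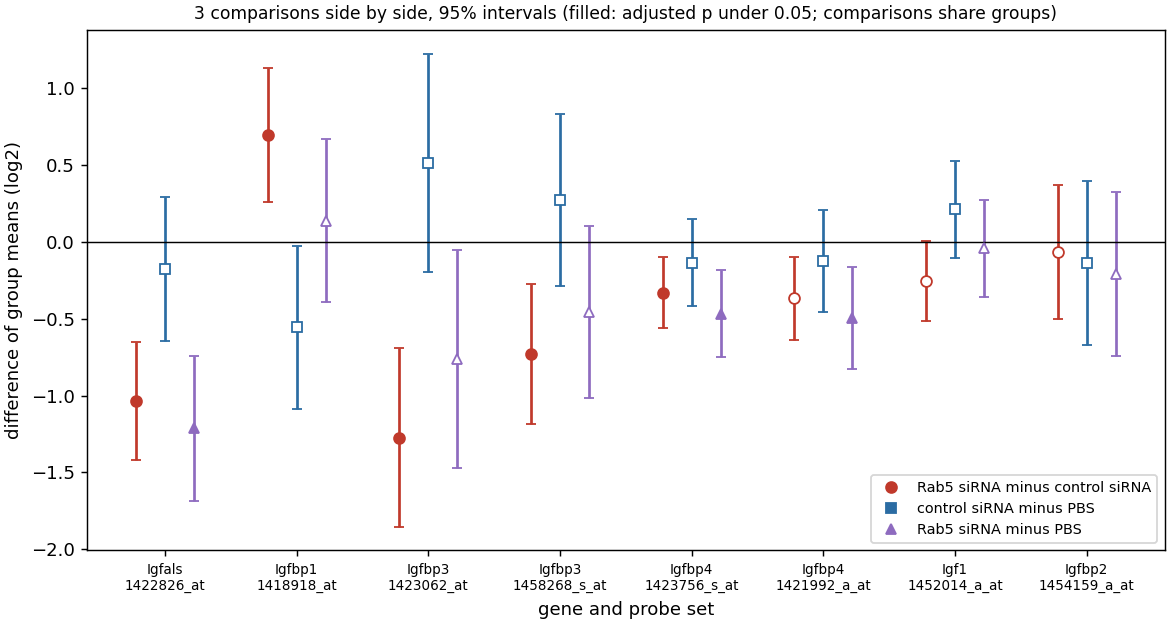
Difference of group means on the log2 scale (vertical axis) for 8 probe sets (horizontal axis) in the 3 comparisons, which share groups, with 95% confidence intervals. Filled symbols have an adjusted p under 0.05; Igfals is low in both comparisons of Rab5 siRNA. For Igfbp1, the interval of Rab5 siRNA minus PBS includes 0. That of control siRNA minus PBS (-1.09 to -0.025) lies below 0, though it was not called.

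Upstream of the 7 genes stand growth hormone and its signalling. Of 13 measured genes of the growth hormone receptor, JAK2, STAT5 and the factors around them, 1 fell with Rab5 siRNA against control siRNA, 0 rose and 12 did not pass, with a median of -0.27, where 8.96% of all kept probe sets fell and 12.2% rose. It was Ghr, the growth hormone receptor, which read 11.47 and 11.53 with PBS, 11.18, 11.60, 11.51 and 11.62 with control siRNA, and 10.61, 10.78, 10.47 and 10.64 with Rab5 siRNA. Every Rab5 liver lay below every other liver. Ghr fell by 0.85 (SE 0.116, adjusted p = 1.83e-04). Stat5b, the STAT5 gene that carries the growth hormone signal in liver, differed by -0.30 (adjusted p = 0.095), and Socs2, a feedback inhibitor induced by growth hormone, by -0.36 with wide spread (SE 0.510, adjusted p = 0.669). Onecut1, a hepatocyte transcription factor, differed by -0.77 (adjusted p = 0.0823) and passed with the replicate block (adjusted p = 0.0101). Ptpn1, another gene of this list, rose with the block (adjusted p = 0.0403), so the count there was 1 higher and 2 lower. The falls numbered 3 without Rab5 liver 1, without the siRNA arrays numbered 1 or with quantile normalization, 4 with array weights and 2 without control liver 2.

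Of the other genes of the IGF family, 10 were measured: 1 fell, 0 rose and the median was -0.12, against 8.96% and 12.2% of all kept probe sets. With array weights, with the 2 groups alone, or without PBS liver 1 or 2, 1 also rose. The insulin receptor gene Insr fell by 0.55 (SE 0.100, adjusted p = 0.00158). Igf2r, the receptor that carries IGF2 to lysosomes, differed by 0.29 (adjusted p = 0.0802), and Igfbp5, the neighbour of Igfbp2 on chromosome 1, by -0.16 (adjusted p = 0.386). Of 7 measured proteases and inhibitors of the IGFBPs, 0 passed the limma test in either direction (median -0.16), with Htra1, a secreted protease, at -0.26 (adjusted p = 0.121) and Ctsd, a lysosomal protease, at 0.24 (adjusted p = 0.124).

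Downstream of the IGF1 and insulin receptors, 19 genes were measured, of which 2 rose and 1 fell (median -0.09), against 12.2% and 8.96% of all kept probe sets. Irs2, an adaptor of both receptors, fell by 1.15 (SE 0.126, adjusted p = 3.41e-05), while Irs1, the related adaptor, differed by -0.09 (adjusted p = 0.684). Eif4ebp1, a brake on translation, rose by 0.38 (adjusted p = 0.0132), and Grb14, an inhibitor of the insulin receptor, rose by 0.36 (adjusted p = 0.0478), a call kept in 8 of 21 alternative settings. The rises numbered 1 without control liver 1, 2 or 3, any 1 Rab5 liver or the arrays numbered 2, and 0 without the siRNA arrays numbered 1. The falls numbered 2 with the block, with array weights, with quantile normalization, with centred arrays, and without control liver 2 or Rab5 liver 4.

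Of 15 genes that control Igfbp1 or share its regulation by insulin, fasting and stress, 3 rose and 4 fell (median 0.01), against 12.2% and 8.96% of all kept probe sets. The gene G6pc, for the last enzyme of glucose release, fell by 2.49 (adjusted p = 2.59e-06). Ppargc1a, a coactivator of fasting genes, fell by 1.06 (adjusted p = 0.00238). Pck1, a gluconeogenic enzyme, fell by 1.04 (adjusted p = 2.75e-04) and Ppara, a nuclear receptor active in fasting, fell by 0.98 (adjusted p = 3.62e-04). The rises were the stress factors Atf3, by 1.34 (adjusted p = 0.00150), and Nfe2l2, by 0.99 (adjusted p = 0.00151), and the amino acid response gene Asns, by 0.77 (adjusted p = 0.0458, kept in 8 of 21 alternative settings). Against control siRNA, Igfbp1 rose while G6pc and Pck1, which insulin also represses, fell. Igfbp1 did not pass against PBS (0.14, adjusted p = 0.784). The transcript of Foxo1, a factor that activates all 3 genes, differed by -0.07 against control siRNA (adjusted p = 0.738), and its protein was not measured. The rises numbered 5 with the replicate block and 2 to 4 in the other alternatives.

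None of these 5 lists had a called gene between control siRNA and PBS by limma, where the lowest adjusted p among the genes named above was that of Irs2, 0.52 higher with control siRNA (adjusted p = 0.934).

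**Figure D5:**
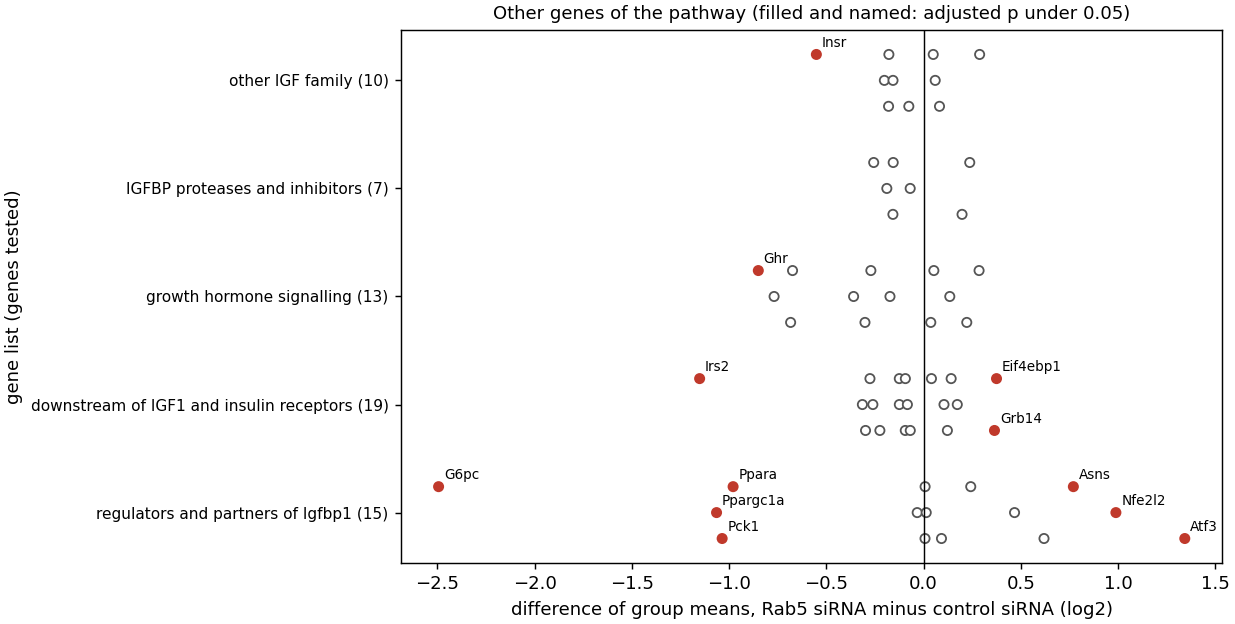
Rab5 siRNA minus control siRNA difference of group means on the log2 scale (horizontal axis) for the measured genes of 5 lists around IGF1 (vertical axis, number of genes in brackets). Each circle is 1 gene by its brightest kept probe set, spread vertically for legibility; filled and named circles have an adjusted p under 0.05, from G6pc at -2.49 to Atf3 at 1.34.

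In whole liver, fewer cells of a type and less RNA per cell cannot be told apart, and this applies to each value given here. Of 12 measured endothelial markers 1 rose (Cdh5, 0.44) and 4 fell (Ptprb, Gpr182, Clec4g and Oit3, by 0.43 to 0.53) against control siRNA, where 12.2% of all kept probe sets rose and 8.96% fell. The log2 of their summed signal was 11.13 to 11.25 with PBS, 11.26 to 11.36 with control siRNA and 11.01 to 11.23 with Rab5 siRNA. The rise of Cdh5 was lost without control liver 1 or 3, Rab5 liver 2 or 3, or the arrays numbered 2. The falls numbered 2 without the arrays numbered 2. Of 10 Kupffer cell markers 6 rose and 0 fell, against the same shares, and 3 rose without control liver 1 or 3, Rab5 liver 2, 3 or 4, or the arrays numbered 2. Their summed level was 12.55 to 12.69, 12.52 to 12.81 and 12.97 to 13.40 in the same order of groups. Of 8 hepatocyte markers 0 rose and 2 fell, against the same shares. They were Tat, at -1.37 the largest difference of the 8, and Cps1 at -0.35. The falls numbered 1 without control liver 1 or 4, Rab5 liver 1 or 3, or the siRNA arrays numbered 1. Their summed level, set mostly by the brightest genes, was 15.88 to 15.96, 15.91 to 15.98 and 15.85 to 15.91. Their mean log2 value was lower in every Rab5 siRNA liver, at 11.38 to 11.48 against 11.76 to 11.91 with PBS and 11.64 to 11.82 with control siRNA. Tat lowered that mean the most, and the median Rab5 siRNA minus control siRNA difference of the 8 was -0.17. Albumin, Alb, which marks the tissue as liver, differed by 0.05. Of 10 stellate markers 1 rose, of 3 bile duct markers 1 rose, and of 6 lymphocyte markers 1 fell, against the same shares of all kept probe sets. The stellate rises numbered 4 without Rab5 liver 1 or with array weights, 3 without the siRNA arrays numbered 1 and 2 without control liver 4. The bile duct rise was lost without control liver 2 or 3, Rab5 liver 1, 2 or 3, or the arrays numbered 2. The part of these markers in the changes of the IGF genes was not tested.

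Genes with the most similar pattern over the 10 livers were taken as those with the smallest root-mean-square difference between mean-centred log2 profiles, among 12252 genes. For Igfals, whose own SD over the livers was 0.631, these were Glul (0.147), Mgll (0.151) and Acacb (0.152). For Igfbp3 (own SD 0.744) they were Keg1 (0.250), Ugt2b38 (0.297) and Khk (0.300), and for Igfbp1 (own SD 0.462) Tff2 (0.249), Slc2a1 (0.260) and Cdc42ep5 (0.261). Those of Igfbp1 are a weak description, as they lay far off relative to its own SD. Against control siRNA, Tff2 (adjusted p = 0.114) and Cdc42ep5 (adjusted p = 0.0981) did not pass. Igf1 varied so little (own SD 0.196) that its nearest genes, E4f1 (0.0814), Fam43a (0.0819) and Rprml (0.0837), are a weak description too.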

How the data were processed

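RNA of 10 livers was measured on Affymetrix whole-genome mouse arrays. The authors deposited log2 expression values. Per the submitters' processing notes, Affymetrix Expression Console, RMA and Partek 6.6 were used, in an order not given in the sources used here. RMA equalises the distributions of the arrays, so a shift of all transcripts would not be seen.

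Of 45101 probe sets, 64 controls were left out. The platform annotation gave 1 symbol to 34945, several to 932 and none to 9160; no gene of the 7 was on a probe set with several. Probe sets above the table's median (4.33) in at least 2 arrays were kept (24281). Group means were fitted over the 10 arrays together (7 residual degrees of freedom) with limma 3.58.1 in R 4.3.3 (lmFit, eBayes), and p-values were adjusted over all kept probe sets by Benjamini-Hochberg. The dim Igf1r probe sets come from a fit without the filter. The test was run on simulated data with independent noise for each probe set. Those data lack the correlations between real probe sets, so the check says nothing about their effect here. A gene of a list is shown by its kept probe set with the highest mean.

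The deviations of same-numbered control siRNA and Rab5 siRNA arrays correlated with r of 0.36, 0.12, 0.18 and 0.29 over probe sets. Some differently numbered arrays came as close, with 0.18 for control liver 4 and Rab5 liver 2, and 0.13 for control liver 2 and Rab5 liver 4. The other differently numbered pairs of these groups lay between -0.31 and 0.04. These values do not establish a pairing for every number. The number was treated as a pairing and fitted as a block in an alternative only. The numbers come from the sample titles. Other alternatives were filters, normalizations, array weights, an intensity trend, the 2 groups alone, and leaving out arrays. The genes and lists were chosen with earlier results of these data known. Promoter sequences are those of RefSeq (GRCm38.p6), and all 7 genes had one. The precision is limited by the number of arrays.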

Additional observations from a re-analysis of the deposited data

Results flagged for a closer look

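Igfbp1 in Rab5 siRNA liver 4 stood apart from its group. It read 12.19 against 11.60 to 11.68 in the other 3 Rab5 siRNA livers, and its gap to the nearest was 0.863 of the group's range, above the critical value of 0.829 for 4 samples. It was 1 of 36 groups of 4 examined, and chance marks about 1 in 20. Without this liver the rise of Igfbp1 against control siRNA was 0.55 (adjusted p = 0.0776).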

How the results depend on the processing

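The falls of Igfals and of Igfbp3 1423062_at against control siRNA kept their direction and their call in all 21 alternatives. The count of called IGF probe sets, 6 of 18, was 3 of 7 with 1 probe set per gene, 11 with array weights, 10 with an intensity trend and robust prior, 10 with the replicate block, 2 without the arrays numbered 2 of all groups, 2 to 9 when 1 array was left out, and 5 of 17 without the Igf1r probe set that lay under the filter in every Rab5 siRNA array, an alternative chosen after seeing the data. Over all probe sets, the Rab5 siRNA against control siRNA count of 5133 became 2993 with 1 probe set per gene (12855 tested) and 2713 without the arrays numbered 2, and the Rab5 siRNA against PBS count of 3746 became 2201 and 1291. The control siRNA against PBS count of 0 became 2 with quantile normalization, 7 with array weights, 1 with the replicate block and 8 with the siRNA arrays numbered 1 left out. Leaving out 1 array gave 3827 to 5836 called for Rab5 siRNA against control siRNA, 1816 (without PBS liver 1; 2110 without PBS liver 2) to 4398 against PBS, and 0 to 18 (without control liver 4) for control siRNA against PBS. With the replicate block 6374 and 3727 were called for Rab5 siRNA against control siRNA and PBS. Beyond the calls given with the results, the block changed no other call of the IGF probe sets compared. Signs turned for differences that were not called: Igf1r 1446303_at (-0.00674 with arrays centred on their medians, -0.0158 with array weights, -0.0144 without the arrays numbered 1, and -0.0097 to 0.0856 leaving out 1 array), Igfbp1 against PBS (-0.0298 to 0.30) and Igfbp2 against control siRNA (-0.23 to 0.0898). The cause was not tested. No detection calls were used, so dim probe sets such as those of Igf1r have no measured background.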
